A study of Mus musculus with 12 samples.

Results

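Transcripts of 6 genes that serve salt and divalent ion transport in the thick ascending limb were followed in control and ischemic mouse kidneys. The genes were Slc12a1, Kcnj1, Bsnd, Casr, Ptger3 and Umod, taken by symbol from a table of 23420 genes. All 6 were in the table and all 6 had enough counts to be tested, among 11664 genes tested. The rule for choosing them, a list of symbols, uses no measured value, but the genes were picked with earlier results of these data known.

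RNA was sequenced in bulk from 12 kidneys of adult male C57BL/6J mice, with 4 control kidneys removed at nephrectomy and 8 kidneys taken 24 h after an ischemia of 20 min made by clamping the renal pedicle. The labels repeat the ischemia protocol for the control kidneys, and no label ties a control kidney to an ischemic one. The ischemic kidneys form a pair of sets of 4. In set A the titles name anaesthesia and the group field names conscious mice, and in set B these words are exchanged, so no direction with anaesthesia was assigned. Set A and set B were each compared with the same 4 control kidneys. Values are given as CPM, each count as a share of its library scaled by the trimmed mean of M-values (TMM), and p-values measure the spread between these kidneys.

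The thick ascending limb reabsorbs salt without water and so dilutes the tubular fluid and feeds the medullary gradient. Sodium, potassium and chloride enter together through the apical cotransporter NKCC2, encoded by Slc12a1. Potassium returns to the lumen through ROMK, encoded by Kcnj1, and chloride leaves the cell through basolateral channels that need the subunit barttin, encoded by Bsnd. The lumen-positive voltage that results drives calcium and magnesium between the cells, and the calcium-sensing receptor, encoded by Casr, restrains this transport. The prostaglandin receptor EP3, encoded by Ptger3, opposes the hormones that raise cyclic AMP. Uromodulin, encoded by Umod, is the protein that the segment secretes into urine. Slc12a1 and Umod mark this segment, while Kcnj1, Bsnd, Casr and Ptger3 are also used in other parts of the nephron or kidney.

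The 6 genes lie on 6 chromosomes of mm10. Slc12a1 spans chr2:125152505-125230002 on the plus strand, Kcnj1 spans chr9:32372493-32399197 on the plus strand, and Ptger3 spans chr3:157566892-157645888 on the plus strand. Bsnd spans chr4:106483456-106492283, Casr spans chr16:36493696-36562141 and Umod spans chr7:119462711-119479282, all on the minus strand. The annotation places another gene on the same strand within Casr (Gm25902) and on the opposite strand at Slc12a1 (Gm14002) and Umod (Gm44588). The libraries were stranded, but the strand setting of the counting is not given in the sources used here, so reads of these overlapping genes could have been shared.

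Sequence upstream of 3 of the genes is shown, because Slc12a1 and Casr had the called changes and Umod, which marks the same segment as Slc12a1, had none. The bases come from the RefSeq promoter table of GRCm38.p6, which has the coordinates of mm10 and held 5 of the 6 genes (all but Bsnd). Each stretch is the part of the 250 bases before the RefSeq start that lies outside the annotated gene, written 5′ to 3′ on the strand of the gene. Slc12a1 is at chr2:125152350-125152504 on the plus strand, Casr at chr16:36562142-36562384 on the minus strand and Umod at chr7:119479283-119479512 on the minus strand.
Slc12a1: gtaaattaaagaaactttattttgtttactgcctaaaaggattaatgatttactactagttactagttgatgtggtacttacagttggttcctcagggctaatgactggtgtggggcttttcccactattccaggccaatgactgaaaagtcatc
Casr: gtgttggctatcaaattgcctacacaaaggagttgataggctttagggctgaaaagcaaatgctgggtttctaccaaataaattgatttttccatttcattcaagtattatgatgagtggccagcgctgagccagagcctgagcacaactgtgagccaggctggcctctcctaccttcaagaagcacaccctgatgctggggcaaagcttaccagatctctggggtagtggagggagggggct
Umod: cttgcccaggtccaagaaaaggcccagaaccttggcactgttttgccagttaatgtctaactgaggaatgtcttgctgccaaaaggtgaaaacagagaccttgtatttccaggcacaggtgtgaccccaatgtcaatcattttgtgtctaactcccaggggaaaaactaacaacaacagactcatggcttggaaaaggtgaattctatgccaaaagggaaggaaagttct

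The 250 bases before each start were searched on both strands for the estrogen-related receptor element AAGGTCA and for the TATA box TATAAA. Neither was found in any of the 5 genes of the table, so the sequences carry no capitals. Among 32851 promoters of the same length, 4.08% held AAGGTCA and 12.4% held TATAAA on either strand. The absence of a match says only that these letters are not in the window.

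Total counts ranged from 15367342 to 44793350 per kidney. Replicate 4 of set B stood apart from the rest. Its median absolute log2 distance from the other kidneys of its group was 0.663 over all tested genes, against 0.351 to 0.510 for the other 11 kidneys. This kidney had the highest level of set B for all 6 genes, so counts and calls are also given without it where they change.

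Slc12a1, the entry step of salt, was much lower after ischemia. The control kidneys held 1501, 1570, 1509 and 1469 CPM. The set A kidneys held 160.0, 172.7, 188.1 and 197.2 CPM, and the set B kidneys held 179.6, 191.8, 124.0 and 529.1 CPM. Every ischemic kidney was below every control kidney, and replicate 4 of set B was above the other 7. The control mean was 1512 ± 42.3 CPM, the set A mean 179.5 ± 16.5 CPM and the set B mean 256.1 ± 184.3 CPM (SD, n = 4 each). Slc12a1 fell by 3.07 ± 0.31 (SE) on the log2 scale in set A (8.42-fold, adjusted p = 3.09e-07 by the quasi-likelihood test of edgeR with Benjamini-Hochberg adjustment over all genes tested). In set B it fell by 2.56 ± 0.30 (5.91-fold, adjusted p = 2.61e-06 in the same edgeR fit). Without replicate 4 the set B mean was 165.2 ± 36.1 CPM (SD, n = 3) and the fall was 3.20 ± 0.15 (9.17-fold).

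Casr, the brake on calcium and salt reabsorption, also fell. The control kidneys held 598.9, 665.3, 579.1 and 601.7 CPM. The set A kidneys held 231.8, 186.2, 256.8 and 235.4 CPM, and the set B kidneys held 142.9, 217.5, 255.0 and 550.5 CPM. The groups did not overlap with the controls, although replicate 4 of set B came close to the lowest control kidney. Casr fell by 1.43 ± 0.27 (SE) on the log2 scale in set A (2.69-fold, edgeR adjusted p = 4.58e-04). In set B it fell by 1.07 ± 0.26 (2.10-fold, edgeR adjusted p = 0.00524). Without replicate 4 of set B this fall was 1.58 ± 0.17 (2.98-fold).

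Umod, the secreted protein of the same segment, did not pass the test in either set. The control kidneys were close together at 118.5, 110.8, 114.1 and 115.8 CPM. The set A kidneys held 109.9, 96.6, 129.6 and 176.9 CPM, and the set B kidneys held 76.0, 96.1, 133.4 and 208.4 CPM. Ischemic kidneys lay on both sides of the controls, and the spread was wider, with an SD of 3.25 CPM among controls, 35.1 CPM for set A and 58.3 CPM for set B (n = 4 each). The log2 difference from control was 0.16 in set A (95% interval -0.35 to 0.67, edgeR adjusted p = 0.760). In set B it was also 0.16 (95% interval -0.34 to 0.67, edgeR adjusted p = 0.742). These intervals leave out a fall of the size seen for Slc12a1 or Casr. Without replicate 4 the set B value was -0.17 ± 0.20 (SE).

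**Figure D1:**
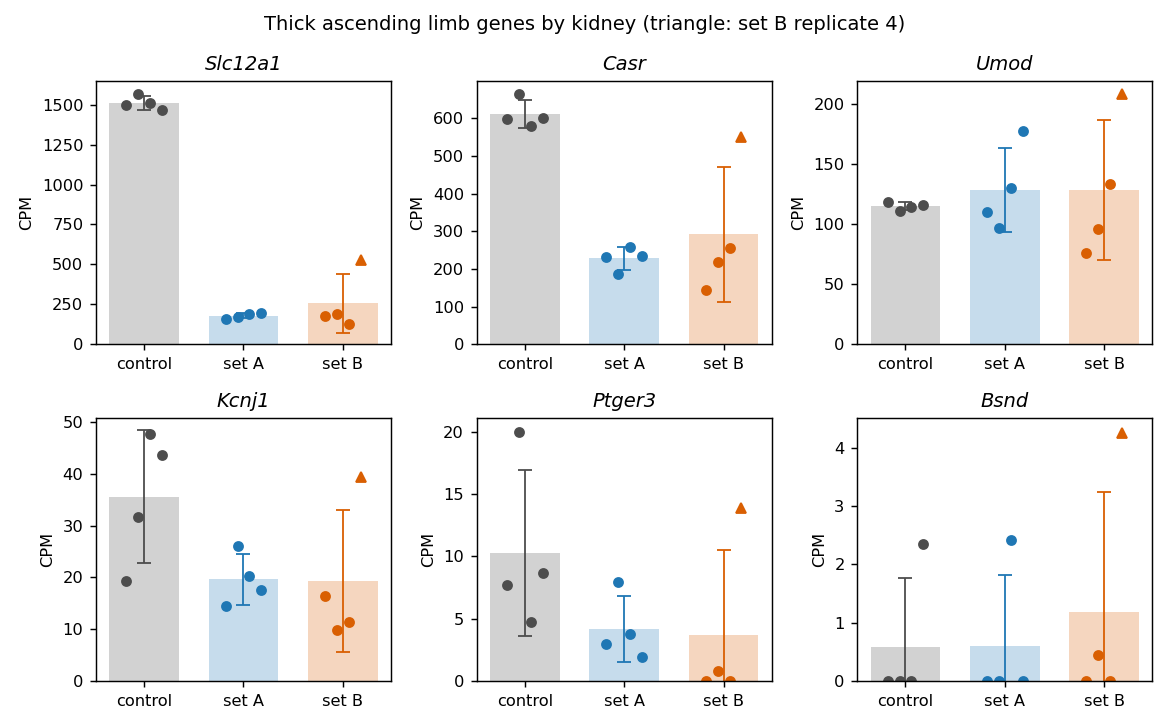
CPM of the 6 genes in each of the 12 kidneys, with bars for group means and whiskers for 1 SD (n = 4). Slc12a1 and Casr are lower in all 8 ischemic kidneys, Umod is spread around the controls, and the triangle, replicate 4 of set B, is the highest set B kidney in every panel.

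Kcnj1, which recycles potassium to the lumen, was lower on average after ischemia without passing the test. The control kidneys spread over 19.3, 31.6, 47.8 and 43.7 CPM. The set A kidneys held 14.5, 26.1, 20.3 and 17.6 CPM, and the set B kidneys held 16.5, 9.87, 11.4 and 39.4 CPM. Set A overlapped with the controls through control replicate 1, and set B through its own replicate 4. The log2 difference was -0.86 in set A (95% interval -1.67 to -0.04, edgeR adjusted p = 0.135). In set B it was -0.89 (95% interval -1.70 to -0.07, edgeR adjusted p = 0.118). Fitted without that kidney, Kcnj1 passed the edgeR test in set A at -0.86 (adjusted p = 0.0436) and in set B at -1.50 (adjusted p = 0.00249). A fit of set A and the controls alone, which also holds no set B kidney, gave -0.83 for set A and did not pass (edgeR adjusted p = 0.0509).

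Ptger3, the receptor that opposes cyclic AMP signals, was low and uneven. The control kidneys held 7.72, 20.0, 4.71 and 8.68 CPM. The set A kidneys held 2.98, 7.96, 3.79 and 1.93 CPM. In set B, replicates 1 and 3 had 0 counts, replicate 2 had 12 counts (0.76 CPM) and replicate 4 had 219 counts (13.9 CPM). Replicate 4 of set B was within the range of the controls and the other 3 were below it. The log2 difference was -1.30 ± 1.21 (SE) in set A (edgeR adjusted p = 0.557) and -1.50 ± 1.22 in set B (edgeR adjusted p = 0.471). Without replicate 4 the set B mean was 0.25 ± 0.44 CPM (SD, n = 3) against 10.3 ± 6.69 CPM in the controls (n = 4), and the comparison passed the edgeR test (adjusted p = 0.00301).

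Bsnd, the subunit needed for chloride exit, was at or near 0 in most kidneys. Counts were 0 in 8 of the 12 kidneys. The other 4 were control replicate 4 with 90 counts, set A replicate 3 with 110, set B replicate 2 with 7 and set B replicate 4 with 67. With 0 counts, the level that 3 counts would give lies between 0.067 and 0.195 CPM over the 12 libraries, which covers counting error only. No difference was detectable in either set (edgeR adjusted p = 0.994 for set A, 0.873 for set B), and the fitted values depend on single kidneys. Such gaps were common in the table. Of the tested genes, 1629 (14.0%) had a control kidney at 0 beside another control kidney with at least 30 counts.

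Against control, each set had 2 of the 6 genes called lower, 0 called higher and 4 not called. Among all genes tested, 11.7% were called lower and 10.5% higher for set A, against 11.9% lower and 10.9% higher for set B. The CPM of 2 of the 6 genes did not overlap with the controls in each set, where 28.2% of all tested genes did not overlap for set A, 26.7% for set B. The 2 genes were Slc12a1 and Casr in each case. Without replicate 4 of set B, set A had 3 of 6 lower, where 12.5% of 12120 genes were called lower, while set B had 4 of 6 lower, where 10.9% were.

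**Figure D2:**
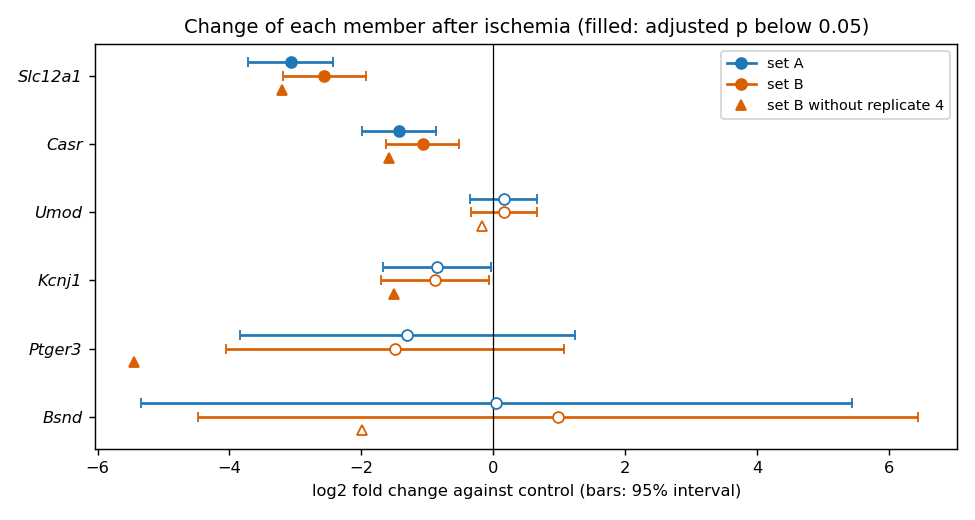
Log2 fold change of each gene against control with its 95% interval, for set A, set B and set B without replicate 4 (triangles, without interval). Filled symbols passed an adjusted p of 0.05, and Kcnj1 and Ptger3 passed in set B only without replicate 4.

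Set B and set A were not told apart for any of the 6 genes. In edgeR 0 of 6 were called, 0 had an unadjusted p under 0.05 and 0 were non-overlapping, DESeq2 called 0 as well, and among all genes tested 0.00857% (1 gene) were called and 2.61% did not overlap. Slc12a1 was 0.51 higher on the log2 scale in set B than in set A (95% interval -0.08 to 1.11, edgeR unadjusted p = 0.0883, adjusted p = 0.9997). A separate two-sided exact permutation test of its CPM gave p = 0.714. Without replicate 4 of set B the log2 difference of Slc12a1 was -0.12 ± 0.13 (SE). For Casr the interval was -0.19 to 0.90, for Kcnj1 -0.84 to 0.79 and for Umod -0.50 to 0.51. For Ptger3 and Bsnd, with kidneys at 0, the intervals were too wide to compare the sets. Without replicate 4 of set B, Ptger3 was the exception among the 6, at -4.14 ± 1.19 (SE, edgeR adjusted p = 0.589) and with an unadjusted p under 0.05, and its remaining set B kidneys, at 0.76 CPM or less, lay below all of set A.

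The order of the levels changed with ischemia. Levels were divided by the exon length of each gene, as CPM per kb, to compare genes with each other. In the controls Slc12a1 was highest at 262.4 ± 7.35 CPM per kb, followed by Casr at 129.6 ± 7.93, Umod at 41.5 ± 1.18, Kcnj1 at 10.7 ± 3.86, Ptger3 at 1.81 ± 1.18 and Bsnd at 0.21 ± 0.43 (SD, n = 4). Neighbours in this order did not overlap, except Ptger3 and Bsnd. In set A the levels per kb were 48.2 for Casr, 46.4 for Umod and 31.1 for Slc12a1, so that Slc12a1 moved from the top to below Umod in all 4 kidneys, and the ranges of Casr and Umod overlapped. In set B they were 61.8 for Casr, 46.5 for Umod and 44.4 for Slc12a1, with overlapping ranges and Umod above Slc12a1 in 2 of 4 kidneys. Without replicate 4 the set B levels were 43.5 for Casr, 36.9 for Umod and 28.7 for Slc12a1 (n = 3), with neighbours still overlapping. Kcnj1, at 5.89 and 5.78 CPM per kb, stayed below these 3 in both sets.

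Ratios within a kidney do not depend on how libraries are scaled, so each gene was also set against Slc12a1. In the controls there were 0.0790, 0.0705, 0.0756 and 0.0789 counts of Umod for each count of Slc12a1. In set A there were 0.687, 0.559, 0.689 and 0.897, and in set B 0.423, 0.501, 1.08 and 0.394. The ischemic kidneys were all above the controls, replicate 4 of set B included. The mean log2 ratio of Umod was 3.20 higher in set A than in the controls (9.19-fold) and 2.85 higher in set B (7.21-fold).

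The ratio of Casr to Slc12a1 was 1.65 higher on the log2 scale in set A (3.13-fold) and 1.55 higher in set B (2.92-fold). That of Kcnj1 was 2.27 higher in set A (4.83-fold) and 1.76 higher in set B (3.4-fold). Without replicate 4 of set B, the set B ratios were 3.01 higher for Umod, 1.61 for Casr and 1.77 for Kcnj1 on the log2 scale. For Umod, Casr and Kcnj1 the ratios of each set did not overlap with those of the controls, and each of these 6 comparisons gave p = 0.0286 in a two-sided exact permutation test, the smallest that 4 kidneys against 4 allow. Adjusted over the 15 ratios tested, this was 0.0714, so none of the 15 passed 0.05 after adjustment. The 15 ratios share Slc12a1 as denominator, so those against the controls carry its fall and are not independent results. Between set B and set A the log2 ratio differed by -0.35 for Umod (exact permutation p = 0.371), by -0.51 for Kcnj1 (exact permutation p = 0.171) and by -0.10 for Casr (exact permutation p = 0.771). The ratio of Ptger3 was 1.79 higher in set A than in the controls, with overlapping kidneys (exact permutation p = 0.0571, adjusted over the 15 ratios 0.122). The ratios of Ptger3 in set B and of Bsnd rest on kidneys at 0 and are not given as folds.

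**Figure D3:**
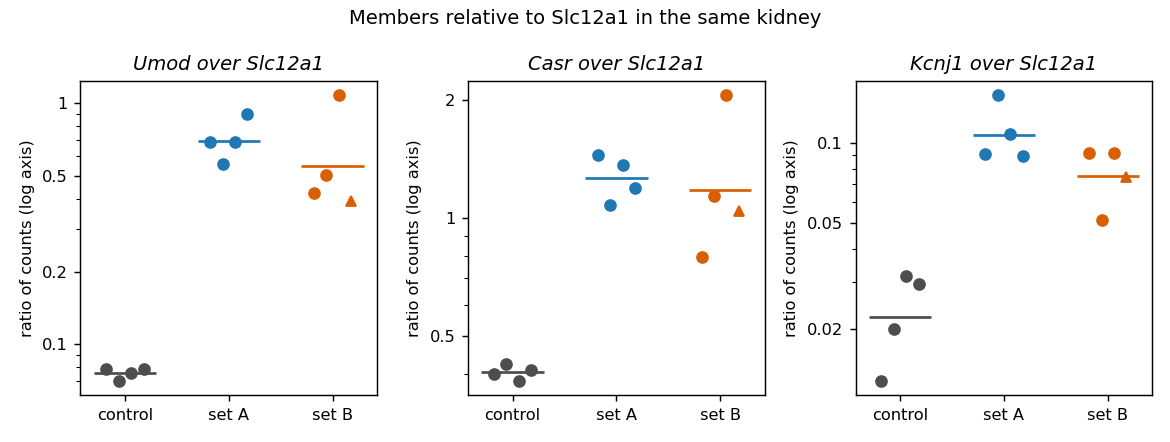
Counts of Umod, Casr and Kcnj1 for each count of Slc12a1 in the same kidney, on log axes, with lines at the geometric mean of each group (4 kidneys) and a triangle for replicate 4 of set B. All 8 ischemic kidneys lie above all 4 controls in each panel.

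In set A the 6 genes did not share 1 highest kidney. It was replicate 4 for Umod and Slc12a1, replicate 2 for Kcnj1 and Ptger3 and replicate 3 for Casr and Bsnd. In set B replicate 4 was highest for all 6. There, relative to the control mean on the log2 CPM scale, Umod was at 0.86, Kcnj1 at 0.23, Casr at -0.15 and Slc12a1 at -1.51. Slc12a1 was thus the only one of these 4 that was far below the controls in that kidney.

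Over the 8 ischemic kidneys, likeness was measured as the root mean square difference of log2 CPM relative to the control mean, among 8512 genes (8513 for Bsnd). The genes nearest to Slc12a1 were Tmem25 (0.49), Oxct1 (0.49) and Slc15a2 (0.52). Nearest to Casr were Sostdc1 (0.24), Irx1 (0.26) and Atp2b2 (0.33), and nearest to Umod were Ddx26b (0.20), Lamb2 (0.23) and Fnbp1l (0.24). Nearest to Kcnj1 were Acvr2b (0.25), Tfrc (0.36) and Tmem72 (0.40). Among the 6 genes the nearest pair was Kcnj1 and Casr at 0.69, while Umod and Slc12a1 were 3.06 apart. The nearest genes to Ptger3 and Bsnd were 1.88 and 1.71 away, and both have kidneys at 0.

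The wider transport machinery of the segment was followed in a list of 45 further genes, of which 43 were tested. In set A 15 were lower, 2 were higher and 26 were not called, with a median log2 difference of -0.50. In set B 12 were lower, 4 were higher and 27 were not called, with a median of -0.19. Over all genes tested, the shares called were 11.7% lower and 10.5% higher for set A, and 11.9% lower and 10.9% higher for set B. The medians of all tested genes were -0.02 in both. Between set B and set A edgeR and DESeq2 called 0 of the 43, and 2 had an unadjusted edgeR p under 0.05. Without replicate 4 of set B, 44 were tested. Set A then had 15 lower and 4 higher with a median of -0.52, and set B had 17 lower and 2 higher with a median of -0.52, so the gap between the medians of the sets rested on that kidney.

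Among 10 channels and exchangers, 4 were lower and 1 was higher in each set, and 5 were lower in set B without its replicate 4. Kcnj16, a subunit of basolateral potassium channels, fell by 1.14 in set A and by 0.93 in set B (edgeR adjusted p = 5.00e-05 and 4.08e-04). Its partner Kcnj10 was not called, at -0.58 and 0.13, and without replicate 4 of set B its set B value was -0.42, also not called. The sodium-activated potassium channel Kcnt1 fell by 3.45 and 2.93, the large-conductance potassium channel Kcnma1 by 1.75 and 1.74, and the sodium-proton exchanger Slc9a3, which the proximal tubule also uses, by 1.64 and 2.14. Replicate 4 of set B held 11.9 CPM of Kcnt1, and without it the set B value was -6.04 ± 0.80 (SE), with a kidney at 0. The anion exchanger Slc4a2 rose by 0.48 and 0.57.

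The tight junction sets which ions pass between the cells. Of 5 claudins, Cldn10, a form of which makes a sodium-selective pore, was the only one called in either set with all kidneys. From 77.6 ± 18.8 CPM among controls it fell to 12.1 ± 7.52 (set A) and 11.2 ± 8.64 (set B; SD, n = 4), by 2.68 and 2.78 on the log2 scale (edgeR adjusted p = 6.25e-04 and 4.67e-04). Its lowest set B value, 2.03 CPM, was in replicate 4, the kidney highest in set B for Slc12a1. Counts by gene do not separate the forms of Cldn10, and which form fell was not tested. Cldn19, which serves the divalent pathway, was at -0.74 and -0.98 and was not called, but without replicate 4 of set B it passed in set B (-1.49, edgeR adjusted p = 0.0129). Its partner Cldn16 and its inhibitor Cldn14 were not called either, and Cldn16 had kidneys at 0 in every group.

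Among 9 genes that control NKCC2 by phosphorylation or trafficking, 2 were lower and 1 was higher in set A, and 2 were lower and 2 were higher in set B. Over all genes tested, 11.7% were lower and 10.5% higher for set A, and 11.9% lower and 10.9% higher for set B. With only 9 genes, counts this small cannot be told from those shares. With replicate 4 of set B left out, the higher genes numbered 3 in set A and 1 in set B. Wnk1, a chloride-sensing kinase, fell by 0.83 in set A and by 0.93 in set B on the log2 scale. Stk39, which encodes the kinase SPAK that phosphorylates NKCC2, was not called in set A (0.56, edgeR adjusted p = 0.0843) and rose in set B (0.71, edgeR adjusted p = 0.0288), and its highest value, 274.2 CPM, was in replicate 4 of set B. Without that kidney the calls of Stk39 changed places, with set A at 0.56 (edgeR adjusted p = 0.0113) and set B at 0.35 (edgeR adjusted p = 0.163), and Sorl1 also passed in set A (0.35, edgeR adjusted p = 0.0401). Maged2, needed for NKCC2 to reach the surface before birth, rose by 1.04 and 1.20. Hpn, the protease hepsin that releases uromodulin from the cell, fell by 1.54 and 1.78 while Umod itself was not called.

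Of 8 tested genes of hormone and prostaglandin control, only Pth1r, the parathyroid hormone receptor, was called. It fell by 1.63 in set A and by 1.70 in set B on the log2 scale, and the proximal tubule also uses it. The other prostaglandin receptors Ptger1 and Ptger4 and the synthase Ptges were not called. Nos1 and Ptgs2 were listed for the macula densa, the plaque of sensing cells at the end of the segment. Whole-kidney counts do not place their transcripts in those cells, and both were low, at means of 1.49 and 0.07 CPM in the controls. Nos1 was not called in set A (1.84, edgeR adjusted p = 0.0825) and rose in set B (2.63, edgeR adjusted p = 0.0144), where replicate 4 alone held 22.0 CPM. Without that kidney Nos1 was not called in set B either (1.74, edgeR adjusted p = 0.145). Ptgs2 was at 4.52 and 4.46 without passing the test (edgeR adjusted p = 0.170 in both).

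Transcription factors and other enriched genes held the deepest fall of the list. Egf, a growth factor made by this segment and the distal convoluted tubule, held 205.6 ± 16.1 CPM among controls, with 3.99 ± 2.51 left in set A against 1.55 ± 1.33 left in set B (SD, n = 4). On the log2 scale it fell by 5.68 in set A and fell by 7.03 in set B. Of the 9 genes, set A had 7 lower and set B had 4 lower, with none higher. Esrrg, an estrogen-related receptor, fell by 1.17 and 0.78, and Ppp1r1a, a phosphatase inhibitor, fell by 1.73 and 1.49. Irx1, Esrrb and Cdh16 were called lower in set A and not in set B, with no difference between the sets called. Without replicate 4, set B had 7 of the 9 lower. Irx1 (-1.53, edgeR adjusted p = 1.62e-04), Esrrb (-1.73, edgeR adjusted p = 0.00122) and Pou3f3 (-1.14, edgeR adjusted p = 0.00293) then passed in set B, and Ppp1r1a was at -2.12.

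**Figure D4:**
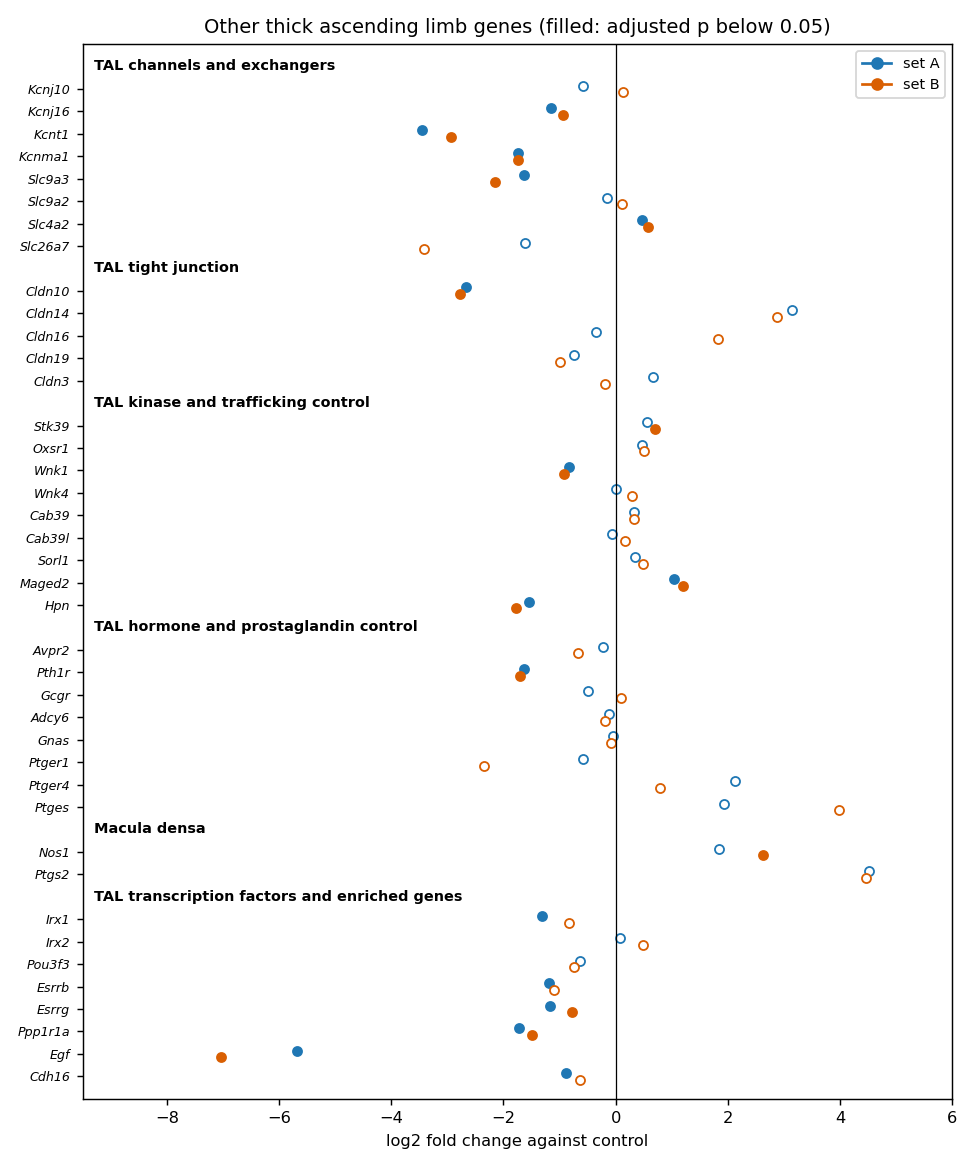
Log2 fold change against control of 40 of the 43 tested genes of the wider list, grouped by role, in set A and set B. Filled points passed an adjusted p of 0.05, with Egf at -5.68 and -7.03 the lowest.

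Some markers of other cells also changed and others did not, and their part in these results was not tested. In bulk RNA, fewer cells of a type and less RNA per cell cannot be told apart. All 7 proximal tubule markers were lower in each set, and their summed level was 6890 to 7719 CPM among controls, 726.7 to 1394 for set A and 426.8 to 1384 for set B, with the lowest value in replicate 4 of set B. Of 4 distal convoluted tubule markers, set A had 1 lower and set B had 2 lower, and the sums were 1303 to 1857, 846.3 to 1378 and 767.4 to 1255 CPM. The sodium-chloride cotransporter Slc12a3, the distal relative of Slc12a1, was not called, at -0.22 for set A and -0.14 for set B on the log2 scale. Of 5 tested principal cell markers edgeR called 0, with 0 at an unadjusted p under 0.05, and their sum was 138.4 to 179.9 CPM among controls, 118.5 to 150.4 for set A and 90.8 to 273.4 for set B. Of 5 intercalated cell markers, set A had 2 lower and set B had 1 lower, with sums of 206.3 to 362.1, 149.3 to 298.7 and 177.2 to 442.2 CPM. Replicate 4 of set B had the highest principal and intercalated cell sums of all 12 kidneys. Without it, set B had 1 distal convoluted tubule and 2 intercalated cell markers lower, and the proximal tubule and principal cell counts were as before.

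Most injury genes rose after ischemia. Of 8 such markers, 7 were higher in each set and Vcam1 was not called (edgeR adjusted p = 0.0719 and 0.0720), with 3.24 CPM in replicate 4 of set B, inside the control range. The sum of the 8, to which Spp1 gave the most, was 28.6 to 35.4 CPM among controls, 758.1 to 1114 for set A and 807.9 to 1346 for set B. Of 4 podocyte markers 2 were higher in each set, and of 4 tested endothelial markers edgeR called 0, with 1 at an unadjusted p under 0.05 in each set. Leukocyte markers summed to at most 7.19 CPM among controls, 8.22 for set A and 16.1 for set B, and edgeR called 0 of the 3 tested, with 0 at an unadjusted p under 0.05. Of the 4 blood markers, Hbb-bs was not among the genes counted, and Hba-a1 and Hba-a2 were at 0 in all 12 kidneys. Only Alas2, an enzyme of haem synthesis, had counts, at most 5.56 CPM in the controls and 0 in set B, where it was called lower. These markers therefore do not give the blood content of the kidneys. Without replicate 4, set B had 8 injury markers and 1 podocyte marker higher, and set A had 1 of 5 tested endothelial markers lower.

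**Figure D5:**
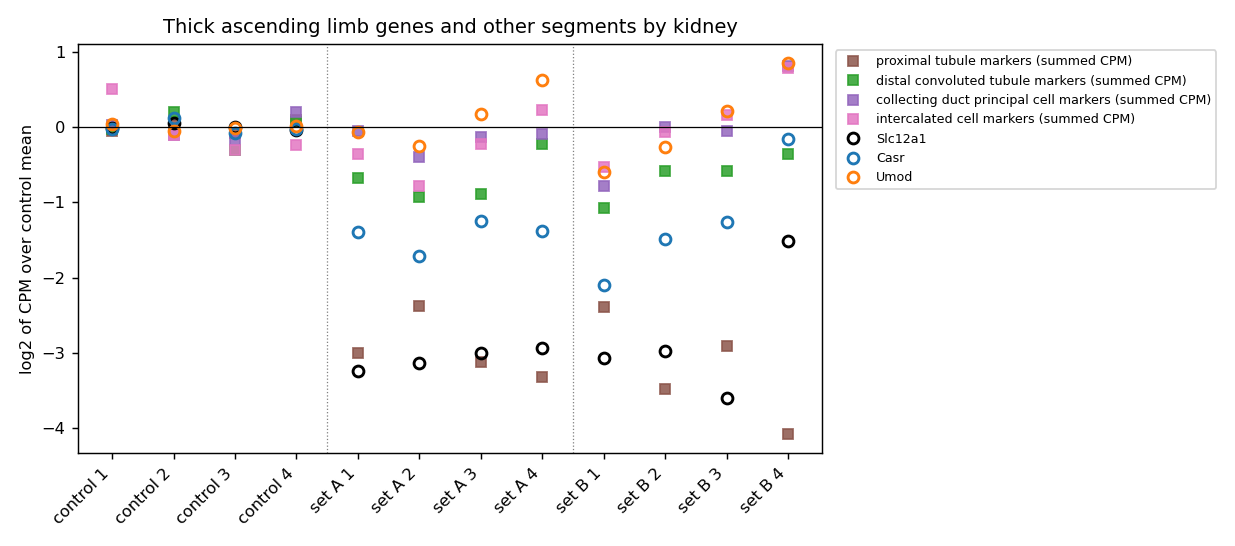
Log2 of CPM over the control mean in each of the 12 kidneys, for Slc12a1, Casr and Umod (open circles) and for the summed markers of 4 other tubule cell types (squares). Proximal tubule markers and Slc12a1 are low in all 8 ischemic kidneys, while replicate 4 of set B has the lowest proximal tubule sum and the highest principal and intercalated cell sums.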

How the data were processed

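RNA from 12 mouse kidneys was measured. The authors made stranded mRNA libraries, ran FastQC, used STAR to map single reads to mm10 and HTSeq to count them, and deposited a table of raw, unnormalized counts for 23420 genes. The versions of FastQC, STAR and HTSeq, the annotation release, the strand setting and any removal of duplicates are not given in the sources used here.

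The tests were run in edgeR 4.0.16 (R 4.3.3). Its default filter, with minimum counts of 10 per library and 15 in total, left 11664 genes. After TMM scaling, 1 model of the 3 groups was fitted over the 12 kidneys together. Contrasts took its two-sided quasi-likelihood test with Benjamini-Hochberg adjustment over every tested gene and calls below 0.05. Ratios were computed on the log2 scale after adding 0.5 counts and compared with exact permutation tests. The procedure was tested on simulated data. Total counts lay between 15367342 and 44793350, and 3 counts set the floor. Chi-square tests of the counts found no replicate pair that differed by less than sampling noise.

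The genes and lists were chosen with earlier results of these data known. Named were the 6 genes, at most 8 genes of each list in the order written plus those needed for its count (some items are not reported here), and the 3 genes nearest to each of the 6 whose mean log2 CPM reached 1. Exon lengths and positions came from GENCODE M21. Alternatives were RLE size factors, DESeq2 1.42.0, keeping genes of any count above 0, keeping those with CPM above 1 in at least 4 kidneys, fitting only the compared groups, a replicate block, CPM of the counted totals and leaving out each kidney. Figures were drawn with matplotlib 3.10.9.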

Additional observations from a re-analysis of the deposited data

Results flagged for a closer look

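Within groups of 4 kidneys, a highest or lowest kidney was marked when its gap to the nearest other kidney exceeded, as a share of the range of the group, the 95% critical value of Dixon's test. This marked 7 of 33 groups. Chance marks about 1 in 20 groups of normally distributed values, a rate that does not hold for groups with kidneys at 0. The groups are also not independent of each other. Replicate 4 of set B was the highest for Slc12a1 at 529.1 CPM, for Ptger3 at 13.9 CPM and for Bsnd at 4.25 CPM. For Bsnd, control replicate 4 at 2.35 CPM and set A replicate 3 at 2.42 CPM were also the highest of their groups. Each stood beside 3 kidneys at 0, where any value above 0 is marked. The log2 ratio of Bsnd to Slc12a1 was likewise highest in control replicate 4 at -9.28 and in set A replicate 3 at -6.27.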

How the results depend on the processing

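Slc12a1 and Casr were called lower in both sets under all 18 alternatives, at log2 values of -3.14 to -2.99 and -1.48 to -1.34 for set A, with -3.20 to -2.35 and -1.58 to -0.86 for set B. Leaving out 1 kidney at a time, 2 to 3 of the 6 genes were called for set A, 2 to 4 for set B, the higher counts coming without replicate 4 of set B. Over these 12 fits the log2 difference in set A lay between -0.054 and 0.27 for Umod, -1.05 and -0.70 for Kcnj1 and -6.91 and 6.99 for Bsnd. In set B it lay between -0.17 and 0.33 for Umod, -1.50 and -0.69 for Kcnj1, -5.44 and -0.99 for Ptger3 and -2.0 and 7.89 for Bsnd. Between set B and set A it lay between -0.33 and 0.19 for Umod, -0.12 and 0.74 for Slc12a1, -0.64 and 0.18 for Kcnj1, -0.15 and 0.58 for Casr, -4.14 and 0.32 for Ptger3 and -2.04 and 7.85 for Bsnd, with no call. The log2 ratios to Slc12a1 between the sets lay between -0.15 and 2.66 for Bsnd and -0.37 and 0.089 for Casr. Between the sets Umod also changed sign, near 0, with the CPM filter (-0.0011), with no filter (-0.00092), with only the groups compared (-0.0021) and with the replicate block (-0.042). With the replicate block 2491 genes were called for set A, 2531 for set B, against 2599 and 2659 without it, but same-numbered kidneys did not deviate together (12 correlations between -0.055 and 0.045), so the numbers do not pair the kidneys. Bsnd did not pass the filter under 2 alternatives, CPM above 1 and only the groups compared. The cause of these changes was not tested beyond the kidneys left out.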
